A study of Rattus norvegicus with 17 samples.

Results

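The comparison of P1.hMR with WT rats that had received no UVB was examined in the meibomian glands (MG), the sebaceous glands of the eyelid that secrete the lipid of the tear film. It used 9 of the 17 RNA samples of the series, from 4 Control WT and 5 Control P1.hMR rats, chosen by their genotype and the absence of treatment. All were female Sprague-Dawley rats of 10 to 12 weeks, and the WT rats were littermates of the transgenic rats. P1.hMR rats carry the human mineralocorticoid receptor (MR) gene NR3C2 under its proximal P1 promoter, which is active in every tissue that expresses MR, so the receptor was not limited to the MG. They also keep their own Nr3c2 gene. Of the 17251 deposited genes, 12836 had 1 TPM, a read abundance scaled for transcript length and library total, or more in 3 of the 9 rats and were tested on the log2(TPM + 1) scale. Differences are given as P1.hMR minus WT, and the limit of a gene is the largest absolute log2 difference still inside its 95% confidence interval. The sample titles give a group and a number, and the study's methods count 4 WT and 5 P1.hMR control rats. Each sample was therefore taken as 1 rat, and the errors as those between rats.

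MR is a nuclear receptor that binds aldosterone and glucocorticoids, and it shares its DNA element and many target genes with the glucocorticoid receptor (GR, Nr3c1). In cells that handle sodium, the enzyme 11βHSD2 (Hsd11b2) inactivates glucocorticoids and leaves MR to aldosterone, while 11βHSD1 (Hsd11b1) regenerates active glucocorticoid. In the MG, basal epithelial cells divide and mature into meibocytes, which fill with wax and cholesterol esters and burst into a duct lined by cornified epithelium.

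The deposited values held other tissue of the eyelid beside the gland. Scd, the stearoyl-CoA desaturase of meibocytes, was listed at 25353.26 to 31197.86 TPM, and the wax synthase Awat2 at 9428.49 to 12062.08 TPM. Skeletal muscle actin Acta1 was at 585.29 to 957.16 TPM and the hair shaft keratin Krt31 at 59.26 to 162.74 TPM in the same rats. The goblet cell mucin Muc5ac was not analysed here, so that cell type could be judged from other genes only. The number of genes listed at 1 TPM or more was 12441 to 12737. Along the first principal component (27.1% of the variance) the genotypes were interleaved, with Control WT rat 1 at one end and Control P1.hMR rat 4 at the other. Fewer cells of a type and less RNA per cell cannot be told apart in such samples.

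The human transgene was the 1 gene called between the genotypes. NR3C2 was listed at 0 TPM in the 4 WT rats and at 6.77, 8.28, 9.25, 9.31 and 7.19 TPM in P1.hMR rats 1 to 5. Its log2 difference was 3.19 (95% interval 2.96 to 3.41, limma adjusted p = 1.67e-07), a value that depends on the pseudocount because the WT rats were at 0. NR3C2 alone passed the thresholds of an adjusted p under 0.05 and an absolute log2 difference of at least 0.5, which is 0.00779% of the genes tested. The smallest adjusted p among the other genes was 0.366.

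Without UVB the human transcript did not bring the total MR transcript of P1.hMR rats beyond the range of the WT rats. Rat Nr3c2 was at 25.90, 17.20, 10.61 and 11.19 TPM in WT rats 1 to 4 and at 11.79, 10.66, 11.01, 9.42 and 9.27 TPM in P1.hMR rats 1 to 5. WT rats 1 and 2 stood above all P1.hMR rats, whereas WT rats 3 and 4 lay among them. The log2 difference of Nr3c2 was -0.51 (95% interval -0.99 to -0.03), with an unadjusted limma p of 0.0388 and an adjusted p of 0.997. Human and rat transcripts added up to 18.6 ± 1.37 TPM in P1.hMR (SD, n = 5). The WT rats had 16.2 ± 7.1 TPM of rat transcript (SD, n = 4). The difference of 2.36 TPM was smaller than the SD of the WT rats, and its 95.2% interval ran from -7.17 to 8.7 TPM. By exact permutation of the rats, two-sided, its p was 0.429, where no value under 0.0159 could be reached. Without WT rat 1 the difference was 5.59 TPM (exact permutation p = 0.0714), and without WT rat 3 it was 0.493 TPM (exact permutation p = 0.857). After UVB the sum was 11.64 to 16.95 TPM in P1.hMR and 6.53 to 11.59 TPM in WT, without overlap, with a difference of 5.29 TPM (exact interval 0.05 to 10.4). Its exact permutation p of 0.0357 is the lowest that design allows. The transgene made up 36.48 to 49.71% of the MR transcript in the P1.hMR rats. Reads of the human and rat genes could have been split between them when the authors quantified them, so both levels are uncertain. In the MG of 6-month-old rats, the study's qPCR found a substantial rise of total MR transcript in P1.hMR rats, with rat MR unchanged. Its immunostaining there found more MR protein. Those rats were older than the rats here, and the methods differ.

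**Figure D1:**
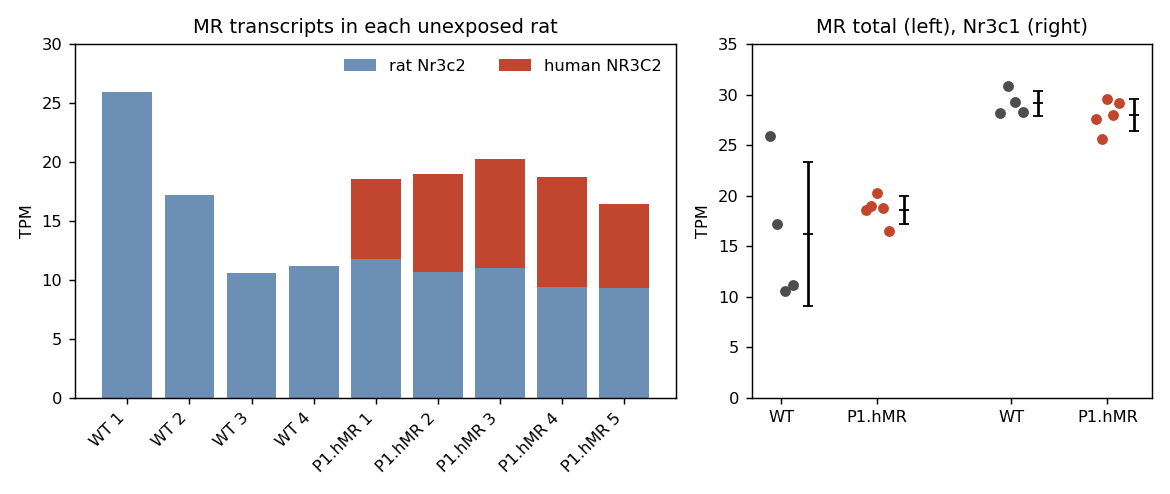
TPM of the rat Nr3c2 and human NR3C2 transcripts, stacked, in each of the 9 unexposed rats (left), and the sum of both beside the GR transcript Nr3c1 by genotype (right; points are rats, bars the mean and SD). The human transcript is 0 in the 4 WT rats, and the sums of the P1.hMR rats, 16.46 to 20.26 TPM, lie inside the WT range of 10.61 to 25.9 TPM.

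For the ratio of MR to GR and the enzymes that set the ligand, the genotypes overlapped. Nr3c1 was at 28.21 to 30.82 TPM in WT and 25.61 to 29.53 TPM in P1.hMR rats, with a log2 interval of -0.17 to 0.06. The ratio of total MR to Nr3c1 was 0.559 ± 0.254 for WT (SD, n = 4) and 0.666 ± 0.0639 for P1.hMR (SD, n = 5), with a two-sided exact permutation p of 0.365. Hsd11b1 was at 1042.95 to 1290.83 TPM in WT and 1066.32 to 1247.11 TPM in P1.hMR rats, and its interval of -0.17 to 0.15 allows at most a 1.13-fold difference. Hsd11b2 was expressed at a low level of 2.84 to 7.09 TPM over the 9 rats, with a wider interval of -0.30 to 0.65. Of the 18 tested genes for steroid receptors, their chaperones, cofactors and ligand enzymes, 15 had an interval inside ±0.5 and all 18 inside ±1. The share inside ±0.5 was 83.3%, against 89.9% of all genes.

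Across all genes, the 9 rats set narrow limits on a genotype difference. The 95% interval lay inside ±0.5 for 89.9% of the genes tested and inside ±1 for 98.6%. The median limit was 0.24, a 1.18-fold difference, and 90% of genes had a limit of at most 0.50. Widened by Bonferroni to hold over all 12836 genes together, the intervals still lay inside ±1 for 68.4% of genes but inside ±0.5 for only 15.5%. The median log2 difference of all genes was -0.003, and the median absolute difference was 0.055. Mean values were higher in P1.hMR rats for 6246 genes and lower for 6590. Under 2 TPM 724 of 1206 genes were higher, and from 2 to under 5 TPM 1032 of 1729. Genes of a list are not independent, so the direction counts of lists below carry no test. An unadjusted p under 0.05 was reached by 507 genes (3.95%), of which 268 (2.09% of those tested) had higher and 239 (1.86%) had lower values in P1.hMR rats. The values of the genotypes did not overlap for 130 genes (1.01%). The filter was met through P1.hMR rats alone, with no WT rat at 1 TPM, by 22 genes and through WT rats alone by 4, and for these the direction was fixed by the filter.

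The limit of a gene followed its level. The median limit was 0.40 for the 1206 genes with a mean under 2 TPM, 0.25 for the 4165 genes from 5 to under 20 TPM, and 0.17 for the 1388 genes from 100 TPM up. The share of intervals inside ±0.5 was 73.1%, 91.3% and 95.4% in these ranges. Below 2 TPM the pseudocount of 1 narrows the differences, and with a pseudocount of 0.1 the median limit there was 0.66 in place of 0.40. Level was not the only source of a wide interval. The GR and MR target Fkbp5, at 12.15 to 62.77 TPM, and the ATP synthase subunit Atp5f1e, at 9.13 to 76.38 TPM, had limits of 1.35 and 2.14. Gp2, a glycoprotein of epithelial surfaces chosen after its values were seen, was among the least bounded genes, at 2.12, 8.12, 14.94 and 24.85 TPM in WT rats and 22.93, 32.72, 21.64, 123.92 and 104.17 TPM in P1.hMR rats. WT rat 4 overlapped with P1.hMR rats 1 and 3, and P1.hMR rats 4 and 5 held its highest values.

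**Figure D2:**
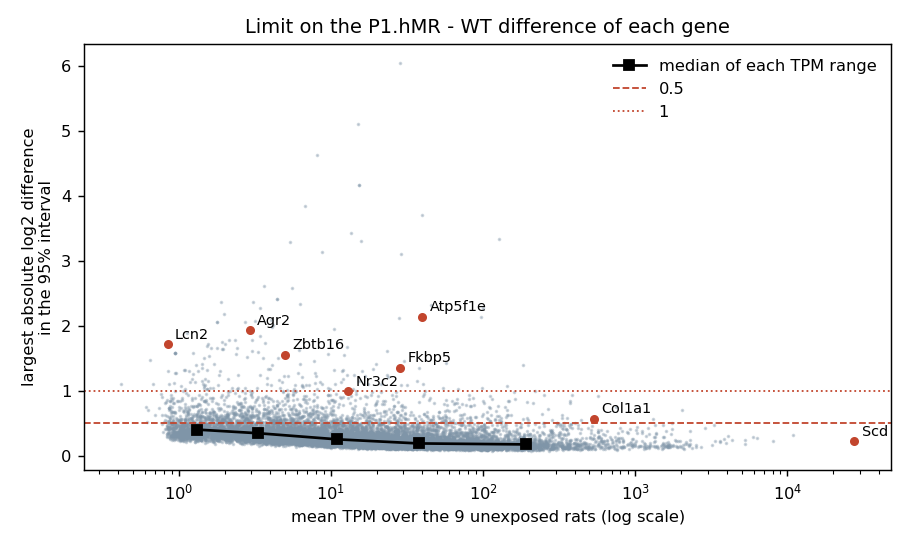
The largest absolute log2 difference inside each gene's 95% interval against its mean TPM over the 9 unexposed rats (log scale), with 1 point per gene except NR3C2, dashed and dotted lines at 0.5 and 1, and black squares for the median of each TPM range. The medians run from 0.40 below 2 TPM to 0.17 from 100 TPM up, and the named genes, Col1a1 and Scd among them, show limits from 0.22 for Scd to 2.14 for Atp5f1e.

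In a list of target genes of MR or GR none was called. Of 29 tested targets, 14 had higher and 15 had lower mean values in P1.hMR rats, with a median difference of -0.02 against -0.003 over all genes. As a list the targets were less well bounded than all genes. Only 15 of the 29 (51.7%) had an interval inside ±0.5, against 89.9% of all genes, and 25 (86.2%) inside ±1, against 98.6%. Their median limit was 0.47, against 0.24 over all genes. Of the 29 targets, 2 had an unadjusted p under 0.05 (3.95% of all genes did), and both had higher values in P1.hMR rats. They were the cyclin-dependent kinase inhibitor Cdkn1c and Lcn2, an iron-binding protein of inflamed epithelium, and are named after their values were seen. Cdkn1c was at 7.68, 7.65, 7.06 and 5.68 TPM in WT and 9.37, 8.36, 7.82, 10.67 and 9.53 TPM in P1.hMR rats, without overlap. Its log2 difference was 0.34 (95% interval 0.11 to 0.57, limma adjusted p = 0.997), and in the UVB rats it was -0.20. Lcn2 was at 0.09, 0.07, 0.00 and 0.29 TPM in WT and 0.32, 2.80, 1.05, 2.70 and 0.28 TPM in P1.hMR rats, and P1.hMR rat 5 overlapped with WT rat 4. Lcn2 passed the filter only through P1.hMR rats 2, 3 and 4, so its direction was fixed by the filter and its p is no support.

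The targets that answer most sharply to glucocorticoid varied from rat to rat in both genotypes, which left their limits wide. Fkbp5, a chaperone of the receptor complex, was at 20.60, 53.83, 22.21 and 22.71 TPM in WT rats 1 to 4 and 33.69, 62.77, 13.06, 12.15 and 14.87 TPM in P1.hMR rats 1 to 5. Zbtb16, a transcription factor, was at 1.48, 12.45, 1.85 and 6.22 TPM in WT and 4.05, 13.54, 1.54, 1.89 and 2.01 TPM in P1.hMR rats. Tsc22d3, which encodes the anti-inflammatory protein GILZ, was at 45.78, 94.46, 28.78 and 68.26 TPM and at 46.22, 92.96, 31.52, 41.12 and 68.65 TPM. WT rat 2 and P1.hMR rat 2 held the highest values of all 3 genes, and their ranges overlapped widely. The clock gene Per1 was at 22.36, 41.68, 13.95 and 31.44 TPM in WT and 28.01, 29.96, 16.93, 13.17 and 31.84 TPM in P1.hMR rats. For Per1 too WT rat 2 was the highest of its group, and WT rat 3 and P1.hMR rat 4 were the lowest of theirs. The 95% intervals of these genes ran from -1.35 to 0.75 for Fkbp5, -1.56 to 1.11 for Zbtb16, -0.86 to 0.76 for Tsc22d3 and -0.88 to 0.57 for Per1. A genotype difference of up to 1.81-fold for Tsc22d3 and 2.94-fold for Zbtb16 was thus inside their intervals.

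**Figure D3:**
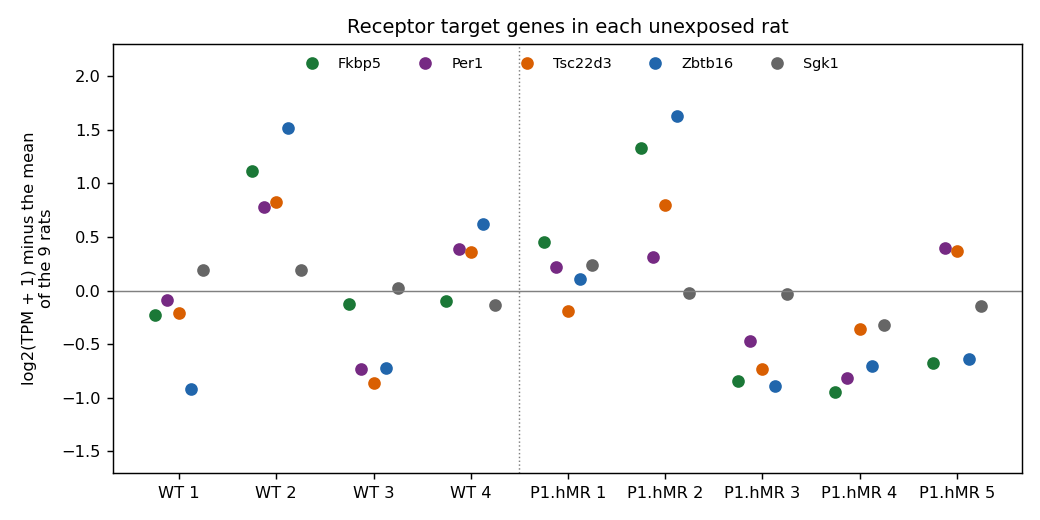
Log2(TPM + 1) of 5 receptor target genes in each of the 9 unexposed rats, as the difference from the gene's mean over the rats, with a dotted line between the genotypes. Fkbp5, Tsc22d3 and Zbtb16 are highest in WT rat 2 and P1.hMR rat 2, whereas Sgk1 stays near 0 in all rats.

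Other targets were bounded more tightly. Sgk1, the kinase through which MR raises sodium uptake, was at 59.16 to 74.54 TPM in WT and 52.14 to 77.05 TPM in P1.hMR rats, and its interval ran from -0.36 to 0.11. Klf9, a transcription factor, had a difference of 0.01 with an interval of -0.37 to 0.38. The channel subunits Scnn1a, Scnn1b and Scnn1g had differences of -0.03, -0.11 and 0.04, and the largest of their limits allowed a 1.28-fold difference. Of the 19 tested genes of sodium transport, 18 had an interval inside ±0.5 (94.7%, near the 89.9% of all genes). The exception was Slc4a7, a sodium bicarbonate cotransporter, at 7.76 to 12.68 TPM in WT and 5.69 to 9.72 TPM in P1.hMR rats, which was also the 1 gene of the list with an unadjusted p under 0.05. Its difference was -0.39 in the unexposed rats and 0.32 in the UVB rats.

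The promoters of the target genes were searched for the half-site of the element to which MR and GR bind, AGAACA, on both strands. RefSeq windows (rat build GRCr8) were matched by symbol for 24 of the 29 genes, and within the 250 bases before the start site 1 of the 24 held the half-site, against 17.5% of 33469 windows. It was that of Sult1a1, a sulfotransferase, on the minus strand at chr1:190706113-190706362, which is printed with the half-site in capitals because it was the only match.

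Sult1a1: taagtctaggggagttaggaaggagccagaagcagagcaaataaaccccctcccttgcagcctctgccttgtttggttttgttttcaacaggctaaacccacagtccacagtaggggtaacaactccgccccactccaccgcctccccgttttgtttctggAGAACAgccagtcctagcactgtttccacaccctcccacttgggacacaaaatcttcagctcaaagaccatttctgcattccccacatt

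The match begins 89 bases before the start site. Sult1a1 itself was at 8.16, 17.40, 8.16 and 17.02 TPM in WT and 11.31, 17.89, 9.42, 5.64 and 9.97 TPM in P1.hMR rats, a difference of -0.21 with an interval of -0.89 to 0.48. A match of 6 letters describes the sequence and does not show a binding site.

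By tissue compartment, the mean log2(TPM + 1) of a list of marker genes was taken in each rat, and its difference between genotypes was given an interval from the exact permutation test over rats. None of the 23 compartment and process lists had scores that kept all P1.hMR rats apart from all WT rats, and for 10 of them the direction of the difference changed when 1 rat was left out. The 95.2% interval of the difference held 0 for 22 of the lists and lay inside ±0.5 for 18 and inside ±1 for all 23. Oxidative phosphorylation, oxidative stress defence, mitochondrial import, basal epithelium and meibocyte lipid synthesis were bounded most tightly. The 5 lists that were not inside ±0.5 were conjunctival and goblet epithelium, macrophages, hair shaft, adipocytes and skeletal muscle.

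Within the gland, genes of meibocyte lipid synthesis differed by -0.01 on the log2 scale, with an interval of -0.17 to 0.13, so that a 1.12-fold difference of the mean was the most it held. Of its 34 tested genes 31 had their own interval inside ±0.5 (89.9% of all genes did), and none had an unadjusted p under 0.05. Scd differed by -0.01 (interval -0.22 to 0.20). Awat2 was at 10767.17 to 12062.08 TPM in WT and 9428.49 to 11012.42 TPM in P1.hMR rats, a difference of -0.15 (interval -0.32 to 0.01). The fatty alcohol reductase Far2 and the elongase Elovl4, which makes very long chain fatty acids, had differences of -0.19 and -0.17 with intervals that held 0. Pparg, the nuclear receptor of meibocyte differentiation, differed by 0.08 (interval -0.05 to 0.21). The receptor Mc5r was the least bounded of the list, at 13.17 to 36.23 TPM in WT and 21.84 to 44.96 TPM in P1.hMR rats, with a limit of 1.09. Awat2, Far2, Elovl4, Pparg and Mc5r are named after their values were seen.

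Basal and progenitor epithelium differed by -0.01 (interval -0.15 to 0.15), and all 18 tested genes had their own interval inside ±0.5 (89.9% of all genes did). Krt14, a keratin of basal cells, was at 4730.99 to 5994.74 TPM in WT and 4972.74 to 5810.97 TPM in P1.hMR rats. Tp63, the transcription factor of epithelial progenitors, differed by -0.05 (interval -0.18 to 0.09) and the proliferation marker Mki67 by 0.09 (interval -0.13 to 0.30), both named after their values were seen. Of 31 tested genes of mitosis 27 had higher mean values in P1.hMR rats (6246 of all 12836 did), with a median difference of 0.09. An unadjusted p under 0.05 was reached by 1 of them. The mitosis score was 3.362, 3.489, 3.621 and 3.377 in WT and 3.554, 3.306, 3.648, 3.666 and 3.577 in P1.hMR rats. The WT scores thus covered much of the P1.hMR range, and the lowest of the 9 scores was that of P1.hMR rat 2. The interval of its difference was -0.13 to 0.29.

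The cornified epithelium of duct and epidermis differed by -0.07 (interval -0.24 to 0.09), with 9 of its 29 tested genes higher and 20 lower and none at an unadjusted p under 0.05. Krtdap, a protein of differentiating keratinocytes, differed by -0.02 (interval -0.21 to 0.18). The epidermal keratins Krt1 and Krt10, named after their values were seen, had differences of -0.23 and -0.18 with intervals that held 0. Hair shaft keratins were less well bounded, with an interval of -0.73 to 0.36, and the inner root sheath of the follicle had one of -0.31 to 0.49. The hair shaft score of P1.hMR rat 3, at 3.798, lay below all others, and the score difference was -0.09 with that rat and 0.05 without it.

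**Figure D4:**
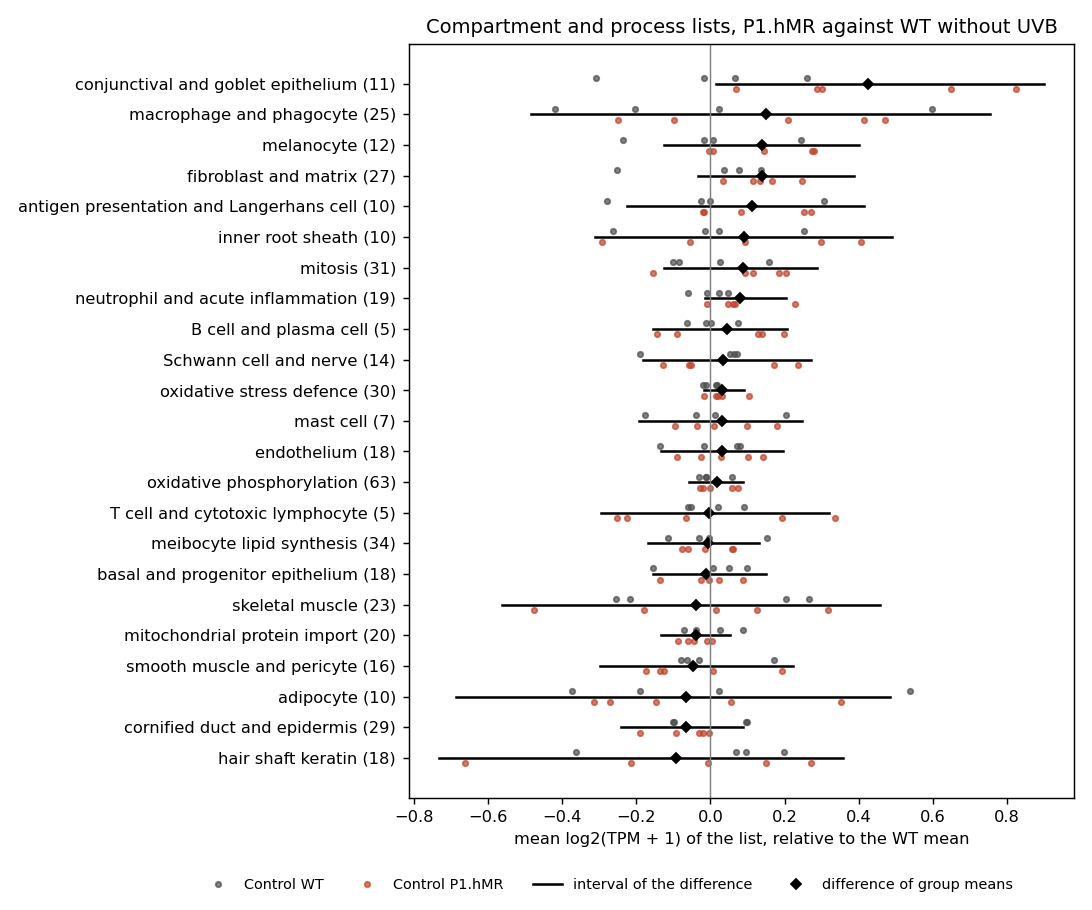
Mean log2(TPM + 1) of each compartment and process list, relative to its WT mean, with the number of tested genes in brackets, grey and red points for the 4 WT and 5 P1.hMR rats, and a diamond and line for the difference of group means and its 95.2% interval. The interval of the conjunctival and goblet list starts at 0.02, all other intervals cross 0, and those of oxidative phosphorylation and oxidative stress defence stay inside ±0.1.

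Among the 23 lists, only that of the conjunctival and goblet epithelium had an interval that did not hold 0. The 95.2% intervals were not adjusted for the number of lists. The conjunctival and goblet score was 3.661, 3.953, 4.036 and 4.231 in WT rats 1 to 4 and 4.270, 4.257, 4.040, 4.794 and 4.620 in P1.hMR rats 1 to 5. P1.hMR rats 4 and 5 held the highest scores, and WT rat 4 lay above P1.hMR rat 3. The difference was 0.43 (interval 0.02 to 0.90), and it was 0.32 without WT rat 1. Of the 11 tested genes 10 had higher mean values in P1.hMR rats (6246 of all 12836 did). Of the 11, 4 had an unadjusted p under 0.05, against 3.95% of all genes, but none was called. Without WT rat 1 the number was 1 of 11. These 4 were Krt18, Agr2, Spdef and Pigr, named after their values were seen. Agr2, a protein disulfide isomerase of mucus-secreting cells, was at 0.67, 0.58, 1.84 and 2.03 TPM in WT and 2.26, 2.16, 1.82, 6.97 and 7.94 TPM in P1.hMR rats. Pigr, the receptor that carries immunoglobulin A across epithelium, was at 2.88, 4.11, 3.13 and 3.09 TPM in WT and 5.30, 4.43, 3.37, 7.21 and 10.91 TPM in P1.hMR rats. P1.hMR rats 4 and 5 were the highest for both. The abundant conjunctival keratin Krt13 differed by 0.01 (interval -0.21 to 0.22). In the UVB rats the score of the list differed by -0.24, in the opposite direction.

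Fibroblast and matrix genes had mostly higher mean values in P1.hMR rats, with small differences. Of the 27 tested genes of this list 24 were higher and 3 lower (6246 of all 12836 were higher). Their median difference was 0.18 against -0.003 over all genes. An unadjusted p under 0.05 was reached by 7 of them, 6 higher and 1 lower (2.09% and 1.86% of all genes), and none was called. The score was 5.298, 5.687, 5.629 and 5.589 in WT and 5.584, 5.684, 5.667, 5.797 and 5.718 in P1.hMR rats, and its interval was -0.03 to 0.39. WT rat 1 was the lowest, and the other WT rats lay among the P1.hMR rats. Without WT rat 1 the score difference went from 0.14 to 0.06, the median of the genes from 0.18 to 0.08 and the number at an unadjusted p under 0.05 from 7 to 4. Fbln1, an extracellular matrix glycoprotein named after its values were seen, had the lowest p, at 17.99 to 22.96 TPM in WT and 22.67 to 26.90 TPM in P1.hMR rats (difference 0.28, interval 0.11 to 0.46). Sparc, a collagen-binding protein, differed by 0.18 (interval -0.07 to 0.42). In the UVB rats the score of the list differed by -0.01.

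Smooth muscle and pericyte genes differed by -0.05 (interval -0.30 to 0.22), endothelial genes by 0.03 (interval -0.13 to 0.20) and Schwann cell and nerve genes by 0.03 (interval -0.18 to 0.27). Of the 16 tested smooth muscle and pericyte genes 4 had higher and 12 lower mean values in P1.hMR rats. Of the 18 tested endothelial genes 11 were higher and 7 lower. Skeletal muscle had an interval of -0.56 to 0.46 and adipocytes one of -0.69 to 0.48. Acta1 was at 648.50 to 911.87 TPM in WT and 585.29 to 957.16 TPM in P1.hMR rats. The ranges of the genotypes overlapped for all these lists. All 12 tested melanocyte genes had higher mean values in P1.hMR rats (6246 of all 12836 did), with a median of 0.13. None had an unadjusted p under 0.05. Their score, at 3.549, 3.792, 4.027 and 3.767 in WT and 3.792, 3.928, 4.059, 3.780 and 4.062 in P1.hMR rats, had an interval of -0.12 to 0.40, and in the UVB rats it differed by 0.33. Without UVB the difference of 0.14 was 0.06 without WT rat 1 and 0.22 without WT rat 3.

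Immune cells could be bounded only in part. Of 25 tested macrophage and phagocyte genes 23 had higher mean values in P1.hMR rats (6246 of all 12836 did), with a median of 0.16. None had an unadjusted p under 0.05. Their score was 2.688, 3.131, 2.905 and 3.704 in WT and 3.317, 3.579, 2.858, 3.520 and 3.009 in P1.hMR rats. The lowest and the highest score both came from WT rats, and the interval of -0.48 to 0.75 still held a 1.69-fold difference. The score difference of 0.15 was 0.01 without WT rat 1 and 0.35 without WT rat 4. Lyz2, the lysozyme of phagocytes, ranged from 85.72 to 338.64 TPM in WT and from 88.73 to 314.16 TPM in P1.hMR rats. Of the 24 T cell genes and 17 B and plasma cell genes only 5 each were tested, since most were below the filter, and the scores of those tested differed by -0.003 (interval -0.30 to 0.32) and 0.05 (interval -0.16 to 0.21). Genes of neutrophils and acute inflammation differed by 0.08 (interval -0.02 to 0.20), by 0.16 with a pseudocount of 0.1 and by -0.015 over the genes with a mean of at least 5 TPM. Without P1.hMR rat 4 the difference was 0.04. Of the 19 tested genes of this list 11 had higher and 8 lower mean values in P1.hMR rats. An unadjusted p under 0.05 was reached by 2 of the 19 (3.95% of all genes did), both higher. They were Tlr2 and Lcn2, named after their values were seen, and the direction of Lcn2 was fixed by the filter. S100a8, a subunit of calprotectin and the most tightly bounded gene of the list, was at 1271.11 to 1434.77 TPM in WT and 1210.39 to 1498.82 TPM in P1.hMR rats, with a limit of 1.15-fold. Mast cell genes differed by 0.03 (interval -0.19 to 0.25) and those of antigen presentation by 0.11 (interval -0.22 to 0.41). Without WT rat 1 the antigen presentation difference was 0.02 and without WT rat 4 it was 0.22, and the mast cell difference was -0.03 without WT rat 2.

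By their scores, mitochondrial and redox genes were the most tightly bounded. The score of oxidative phosphorylation genes differed by 0.02 (interval -0.06 to 0.09) and that of mitochondrial protein import by -0.04 (interval -0.13 to 0.05). Of the oxidative phosphorylation genes 27 had higher and 36 lower mean values, with a median of -0.009. The least bounded of them was Atp5f1e, with a difference of 1.47 and a limit of 2.14. Of the 20 tested import genes 16 had lower mean values in P1.hMR rats and 1 had an unadjusted p under 0.05, and without WT rat 1 the score difference was -0.01. Of 63 tested subunits of oxidative phosphorylation 58 had an interval inside ±0.5 (92.1%, near the 89.9% of all genes). Atp5f1b, the catalytic subunit of ATP synthase, differed by -0.001 (interval -0.10 to 0.10). Tomm20, the import receptor of the outer membrane, was at 81.04 to 96.21 TPM in WT and 77.56 to 87.53 TPM in P1.hMR rats (difference -0.08, interval -0.20 to 0.05) and is named after its values were seen. All 20 tested import genes and all 30 tested genes of oxidative stress defence had an interval inside ±0.5. Prdx5, a peroxiredoxin, differed by -0.04 (interval -0.13 to 0.06).

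The study named genes for the MG of 6-month-old P1.hMR rats, and 19 of these 21 were tested in the younger rats here. Its 6-month transcriptome was of males, whereas the rats here were females. Tlr3, Nos3, Cd36, Clu and Ccl2 among the 21 were taken from a published study of rosacea skin. For all 21 the study's qPCR listed higher values in P1.hMR rats of both sexes, not all of them significant. Of the 19, 13 had higher and 6 lower mean values here, 15 had an interval inside ±0.5 and all 19 inside ±1. The share inside ±0.5 was 78.9%, against 89.9% of all genes. Col3a1 was at 293.80, 458.23, 423.70 and 399.20 TPM in WT and 450.76, 462.86, 490.58, 517.86 and 482.09 TPM in P1.hMR rats. WT rat 1 stood lowest, and the P1.hMR values overlapped with that of WT rat 2 alone. The difference of Col3a1 was 0.31 (interval 0.06 to 0.55, limma adjusted p = 0.997). Fbln5, an elastic fibre protein, was at 16.86 to 18.77 TPM in WT and 15.92 to 16.83 TPM in P1.hMR rats, without overlap (difference -0.11, interval -0.22 to -0.002). The intervals of the other 17 held 0. Among structural genes, Col1a1 differed by 0.25, Vim by 0.05, Sdc4 by 0.15 and the melanosome protein Pmel by 0.22. Among metabolic genes, Cyp1b1, Cyp1a1, Pdha1, Dld, Crat and Acsm3 had differences from -0.10 for Acsm3 to 0.09 for Cyp1a1. Pdha1, a subunit of pyruvate dehydrogenase, was bounded to a 1.09-fold difference. The signalling genes Kcnj8, Wipf1 and Stc1 differed by 0.11, 0.12 and -0.08. The chemokine Ccl2 was the least bounded, at 1.45 to 3.13 TPM in WT and 1.79 to 4.96 TPM in P1.hMR rats, with a limit of 1.62-fold, while Tlr3, Nos3 and Clu had limits of 1.31-fold, 1.27-fold and 1.22-fold.

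The genes of lowest p were examined one by one and then in the UVB rats, 5 P1.hMR and 3 WT rats that shared no animal with the unexposed comparison. None of the genes described next was called. Aamdc, a protein linked to adipogenesis, was at 8.98, 9.78, 8.50 and 8.99 TPM in WT and 11.76, 13.04, 11.75, 12.16 and 11.84 TPM in P1.hMR rats. The genotypes did not overlap, and its difference was 0.38 (interval 0.25 to 0.51, limma adjusted p = 0.366). In the UVB rats it was 0.05 (interval -0.36 to 0.45).

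Pgrmc2, a haem and steroid binding membrane protein, had the lowest p of the genes with lower values. It was at 501.75, 464.62, 479.10 and 452.18 TPM in WT and 397.32, 387.95, 413.40, 384.09 and 415.79 TPM in P1.hMR rats. All P1.hMR rats lay below all WT rats, with a difference of -0.25 (interval -0.35 to -0.15, limma adjusted p = 0.929). In the UVB rats the difference was -0.34 (interval -0.49 to -0.20, limma adjusted p = 0.349), again without overlap (exact permutation p = 0.0357, two-sided, which is the lowest that 3 against 5 rats allow). Among its nearest tested neighbours in the RefSeq gene order, Larp1b, an RNA-binding protein, and Mfsd8, a lysosomal membrane protein, are named after their values were seen. Larp1b was at 34.32 to 37.42 TPM in WT and 28.12 to 32.67 TPM in P1.hMR rats, without overlap. It differed by -0.19 in the unexposed and -0.12 in the UVB rats, and Mfsd8 by -0.20 and -0.22. Abhd18, which lies between them, differed by 0.07 and -0.07. Jade1, on the other side of Pgrmc2, differed by -0.08 and -0.03. The 250 bases before the Pgrmc2 start site are printed because the gene had this difference in both sets of rats (GRCr8, minus strand, chr2:126012091-126012340), with the CCAAT box on either strand, CCAAT or ATTGG, in capitals.

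Pgrmc2: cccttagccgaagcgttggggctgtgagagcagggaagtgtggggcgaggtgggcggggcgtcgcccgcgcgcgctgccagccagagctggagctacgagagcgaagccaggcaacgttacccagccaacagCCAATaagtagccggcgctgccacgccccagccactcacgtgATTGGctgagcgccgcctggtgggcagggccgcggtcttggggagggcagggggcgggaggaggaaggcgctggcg

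The window held 2 such boxes and no AGAACA half-site, and 34.0% of the 33469 windows held a box.

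Among genes with higher values, the 3 of lowest p after NR3C2 and Aamdc were Gng10, Atp5f1e and Hspb6. Gng10, a G protein subunit, was at 0.11, 0.85, 1.18 and 0.20 TPM in WT and 1.86, 2.12, 2.01, 2.96 and 1.94 TPM in P1.hMR rats. Atp5f1e was at 24.35, 25.39, 9.13 and 21.47 TPM in WT and 68.61, 34.29, 53.48, 76.38 and 46.04 TPM in P1.hMR rats. Gng10 reached 1 TPM in 1 WT rat and in all P1.hMR rats, so it passed the filter mainly through the group where it is high. Neither gene overlapped between the genotypes, and their differences were 1.05 and 1.47 in the unexposed rats but -0.02 and -0.77 in the UVB rats. Short genes with near-identical copies, such as Atp5f1e, are uncertain where the quantification could have split their reads.

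Hspb6, a small heat shock protein, was at 30.63, 40.48, 34.00 and 56.34 TPM in WT rats 1 to 4 and 67.68, 63.38, 59.33, 74.34 and 62.51 TPM in P1.hMR rats. Its neighbour Lin37, a subunit of a cell cycle repressor complex, was at 13.23, 12.00, 13.22 and 25.44 TPM in WT and 24.22, 27.13, 26.14, 23.31 and 27.08 TPM in P1.hMR rats. WT rat 4 was the highest WT rat for both genes, and for Lin37 it lay among the P1.hMR rats. Their differences were 0.72 (interval 0.39 to 1.05) and 0.71, and in the UVB rats they were -0.07 and 0.15. Without WT rat 4 limma called 6 genes, which were NR3C2, Hspb6, Lin37, Proser3, Rassf6 and Mill1. Proser3 lies next to Hspb6 in the gene order, and neighbouring genes that overlap could share reads, which was not tested. Beyond Lin37, Psenen differed by 0.246 in the unexposed and 0.085 in the UVB rats, U2af1l4 by 0.043 and -0.229, and Igflr1 by 0.417 and 0.607. On the other side Arhgap33 differed by 0.218 and -0.109. These further neighbours are named after their values were seen. Rassf6, a gene of the Ras association family, was at 5.68, 6.21, 6.05 and 16.17 TPM in WT and 9.36 to 12.32 TPM in P1.hMR rats, so that WT rat 4 exceeded all P1.hMR rats. Lin37, Proser3 and Rassf6 are named for these calls, after their values were seen.

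Of the other genes with lower values, Mill1, a protein related to MHC class I, was at 67.08 to 93.15 TPM in WT and 57.68 to 65.74 TPM in P1.hMR rats, and differed by -0.42 in the unexposed and -0.20 in the UVB rats. Cmss1 differed by -0.26 and -0.23, the protease inhibitor Spink8 by -0.38 and 0.02, and the chromatin protein Smchd1 by -0.16 and 0.04. None of these genotype groups overlapped without UVB.

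Over all genes but NR3C2, 51.6% had the same direction of the genotype difference in the unexposed and in the UVB rats. Among the 506 genes at an unadjusted p under 0.05 without UVB it was 277 (54.7%), and among the 10 of lowest p it was 6. In the UVB rats an unadjusted p under 0.05 was reached by 9.03% of genes. Of the 506, 37 reached it in the same direction and 15 in the opposite one. Over all 12835 genes but NR3C2, 593 reached it in the same direction and 565 in the opposite one. Genes are not independent replicates, so these counts carry no test. The test of the difference between both sets of rats, the interaction in the fit of all 17 rats, had no adjusted p below 0.308.

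**Figure D5:**
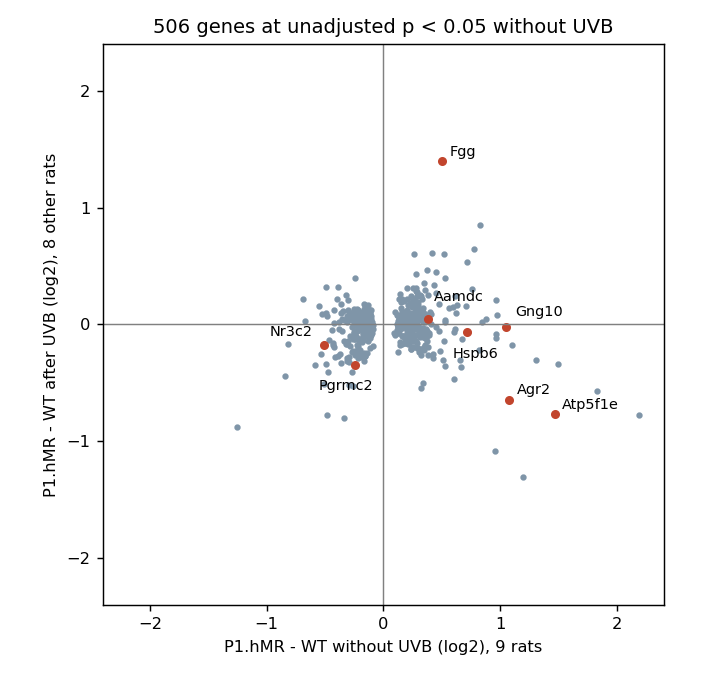
Log2 difference between P1.hMR and WT rats without UVB (9 rats, horizontal) and after UVB (8 other rats, vertical) for the 506 genes besides NR3C2 at an unadjusted p under 0.05 without UVB. Pgrmc2 lies below 0 on both axes, Agr2 and Atp5f1e are positive without UVB and negative after it, and 277 of the genes have the same sign in both sets.

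The genotype difference without UVB was small beside the response to UVB itself, with which it shares its control rats. The median absolute log2 difference over all genes but NR3C2 was 0.055 for genotype without UVB, 0.079 for genotype after UVB, 0.141 for UVB in WT and 0.158 for UVB in P1.hMR rats. An absolute difference of at least 1 was reached by 18 genes for genotype without UVB, against 227 for UVB in WT and 294 for UVB in P1.hMR rats. The spread within the groups was much the same, with a median SD over genes, on the log2 scale, of 0.117 for the WT and 0.110 for the P1.hMR rats.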

How the data were processed

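The authors' methods name FastQC, STAR, RSEM and rn7 for these reads, whereas the submitters' processing notes name FastQC, Trimmomatic, DRAGEN, Picard and rn7, so the steps behind the values are not certain. The deposited values are TPM, 1 column per rat, written with decimal commas. TPM keeps no counts, so depth and counting error are unknown and the number of rats sets the precision.

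The 9 rats were fitted with limma 3.58.1 in R 4.3.3 on log2(TPM + 1), with a variance trend, two-sided tests and Benjamini-Hochberg adjustment over the tested genes. The pseudocount understates differences of low genes. Calls needed an adjusted p under 0.05 and an absolute log2 difference of at least 0.5. Single values and list scores used exact permutation over the 126 splits of the rats (Python 3.11.15, scipy 1.17.1). The UVB rats were fitted separately. The scripts were tested on simulated data.

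The comparison and the gene lists were chosen with earlier results of these data known, so lists carry no p. Named genes were the receptors and ligand enzymes, 10 targets, the genes the study named at 6 months (its Fnln5 was read as Fbln5), the most abundant gene of each list, the 5 lowest p in each direction and every called gene. Any other is marked as chosen after its values were seen. A few list genes were not analysed here. The values of 1 of the 10 targets are not reported here. The alternatives changed the pseudocount to 0.1, dropped the filter or raised it to a mean of 5 TPM, changed the scaling (quantile, median of ratios), the variance trend, the weights or the fold threshold, used all 17 rats, a replicate block or muscle and hair covariates, and left out each rat.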

Additional observations from a re-analysis of the deposited data

Results flagged for a closer look

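In groups of 4 or 5 rats, a rat was marked where its gap to the nearest rat took up more of the group's range than Dixon's 95% value. Of 179 groups of values examined, 8 held such a rat, and chance marks about 5%. Fkbp5 was at 53.83 TPM in Control WT rat 2 and 20.6 to 22.71 TPM in the other WT rats. Clu was at 78.27 TPM in Control WT rat 1 against 92.73 to 94.63 TPM, Epcam at 332.3 TPM in the same rat against 381.4 to 387.3 TPM, and its Schwann cell and nerve score was 3.27 against 3.51 to 3.53. Atp5f1b was at 1574 TPM in Control WT rat 2 against 1483 to 1495 TPM, and Atp5f1e at 9.13 TPM in Control WT rat 3 against 21.47 to 25.39 TPM. S100a8 was at 1499 TPM in Control P1.hMR rat 3 against 1210 to 1286 TPM, and Gng10 at 2.96 TPM in Control P1.hMR rat 4 against 1.86 to 2.12 TPM. No gene's genotype difference was shown to differ between unexposed and UVB rats.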

How the results depend on the processing

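NR3C2 was called alone in 18 of the 20 other fits. With a mean of at least 5 TPM NR3C2 was not tested and 0 genes were called by limma, with 395 genes at an unadjusted p under 0.05. With each rat left out, 1 to 6 genes were called, 6 without Control WT rat 4, where Hspb6 (0.89) and Mill1 (-0.52) passed. In these fits the number of genes with an interval inside ±0.5 ran from 10984 to 11475, inside ±1 from 12537 to 12604, and at an unadjusted p under 0.05 from 375 to 740. With a pseudocount of 0.1 the difference of Gng10 was 2.10, and 81.3% of intervals lay inside ±0.5. The score of neutrophils and acute inflammation went from 0.08 to 0.16 with a pseudocount of 0.1 and to -0.015 with a mean of at least 5 TPM. The total MR difference ran from 0.493 to 5.59 TPM with each rat left out. In the UVB rats 1 gene was called, and with each rat left out 1 to 44, 44 without UVB WT rat 3 and 2 without UVB P1.hMR rat 4.

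Same-numbered WT and P1.hMR rats correlated at 0.209, 0.044, 0.124 and 0.266, so 1 of the 4 was under 0.1 and the numbers were not taken to pair the rats, although all 4 were positive. Not every rat correlated best with its own number. A replicate block called 1 gene, as without it, and gave a paired total MR difference of 2.90 TPM (exact permutation p = 0.375). Of the 65 named genes not called, 32 changed direction in at least 1 fit. Over all lists and alternatives 29 of 367 score differences had another sign than the reported one, and for 10 of the 23 compartment and process lists the sign changed with 1 rat left out. The other results kept their side of the threshold. TPM cannot bound genes near 0, and 9 rats leave lists of variable tissues wide.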
